A study of Rattus norvegicus with 6 samples.

Results

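Transcripts of 10 genes that mark the cells of the renal collecting duct were measured in rats given NDMA (N-nitrosodimethylamine), whose metabolites add methyl groups to DNA. The set was chosen by gene name, as every array probe whose accession is a RefSeq transcript of 6 principal cell genes (Aqp2, Aqp3, Avpr2, Scnn1a, Scnn1b and Scnn1g) or 4 intercalated cell genes (Slc4a1, Slc26a4, Foxi1 and Atp6v1b1). It held 19 of the 61657 probes on the array, 10 for principal and 9 for intercalated cell genes. The tissue was renal cortex of 6 male Sprague-Dawley (Crl:CD(SD)) rats, bought at 5 weeks of age and kept on a basal diet. The water control group (n = 3) received water for 4 weeks, and the NDMA group (n = 3) received NDMA at 4 mg/kg/day for 4 weeks. The route is not given in the sources used here. Each animal was read on its own 1-colour array, and the 3 animals of a group were biological replicates per the series' design text.

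The collecting duct is the last segment of the nephron and has intermingled cells of 2 main types. Principal cells take up sodium through the epithelial sodium channel and water through aquaporins. Vasopressin acts on its V2 receptor to raise cyclic AMP, which moves aquaporin-2 to the apical membrane, and aldosterone raises the activity of the sodium channel. Intercalated cells move acid and base with a proton pump and anion exchangers, and the transcription factor Foxi1 is needed for them to form. The question was how far these transcripts differed between the cortex of treated and untreated rats.

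Of the 10 genes, 0 passed the test (limma, adjusted p under 0.05 by Benjamini-Hochberg over 34155 features, each a gene or an unnamed probe), where 2.95% of all features did, 2.48% higher and 0.477% lower after NDMA. Aqp2 and Aqp3, the water channels of the apical and basolateral membrane of principal cells, had the largest differences, with group means 1.38-fold and 1.34-fold lower after NDMA. They were the only 2 of the 10 genes at an unadjusted p under 0.05, where 18.5% of all features were, 10.1% of all with NDMA lower. They were also the only 2 whose groups did not overlap, in both cases with NDMA lower. Over all features the groups did not overlap in 27.3%, with NDMA lower in 16.3% and higher in 10.9%. The difference was below 0 for 9 of the 10 genes, 5 of 6 principal and 4 of 4 intercalated, and for 58.6% of all features. Under the alternative settings it was below 0 for 7 to 10 genes, since Scnn1a, Scnn1b, Slc4a1 and Foxi1 turned sign in some of them. The median log2 difference was -0.26 over the principal genes, -0.17 over the intercalated genes and -0.04 over all features. Without control 3 the principal median was -0.04, equal to that of all features at 2 decimals, and without NDMA animal 2 it was -0.12. With the slide as a block the principal median was -0.10 and the intercalated median 0.09, and without NDMA animal 3 the intercalated median was -0.06. In whole cortex, fewer cells of a type and less RNA per cell cannot be told apart.

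Values are normalised log2 signals, that is the log2 of a spot's processed intensity minus the log2 of the 75th percentile of its own array, so 0 is a signal at that percentile. They are comparable between animals for the same probe and not between probes. All 19 probes were well above background on all 6 arrays and 0 were saturated, so each of them was tested. Each gene is given by its brightest probe, and differences are NDMA minus control on the log2 scale with the standard error (SE) of the fit. Controls 1 to 3 and NDMA animal 1 shared slide 1, and NDMA animals 2 and 3 were on slide 2, scanned on another day. The value within slide 1, where NDMA animal 1 stood against the 3 controls, is therefore given for the brightest probe of each collecting duct gene. For most other probes and for most genes of the comparison lists it is not given, and their differences hold the same confounding with the slide.

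Probe sequences were not used here. The regions shown are the 250 bases before the transcription start in RefSeq, build GRCr8, for the 2 water channels with the largest differences and for the proton pump subunit Atp6v1b1. An entry was found for 8 of the 10 genes. Capitals mark TGACG, the core of the element bound by the cyclic AMP factor CREB, and GATA, the core of the site of Gata2 and Gata3, in the aquaporin promoters, and TGTTTAC, a core of forkhead sites, in Atp6v1b1, all read on both strands.
Aqp2 (GRCr8 chr7:132590036-132590285, plus strand): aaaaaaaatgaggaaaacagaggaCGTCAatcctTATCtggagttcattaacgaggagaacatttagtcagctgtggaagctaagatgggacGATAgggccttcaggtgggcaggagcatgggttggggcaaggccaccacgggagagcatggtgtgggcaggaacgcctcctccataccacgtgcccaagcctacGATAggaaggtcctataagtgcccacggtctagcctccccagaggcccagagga
Aqp3 (GRCr8 chr5:61040684-61040933, minus strand): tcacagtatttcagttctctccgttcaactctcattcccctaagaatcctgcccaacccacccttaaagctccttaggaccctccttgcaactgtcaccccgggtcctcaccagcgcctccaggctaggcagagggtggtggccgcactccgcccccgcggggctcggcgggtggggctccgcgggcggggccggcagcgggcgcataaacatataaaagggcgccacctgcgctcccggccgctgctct
Atp6v1b1 (GRCr8 chr4:117781194-117781443, plus strand): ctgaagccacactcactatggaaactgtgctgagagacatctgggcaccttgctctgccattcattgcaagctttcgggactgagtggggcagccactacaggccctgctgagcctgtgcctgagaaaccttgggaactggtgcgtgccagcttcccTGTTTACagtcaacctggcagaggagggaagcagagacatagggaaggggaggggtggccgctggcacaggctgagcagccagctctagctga

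TGACG occurred once in the Aqp2 window, 226 bases before the start on the other strand, and once in that of Scnn1b, and in 18.2% of all 33469 promoters of the same length. The full palindrome TGACGTCA, which holds TGACG on both strands, was in 0 of the 8 windows and in 1.59% of all promoters. GATA occurred 3 times in the Aqp2 window, 2 times in that of Avpr2, once each in those of Scnn1b and the intercalated cell gene Foxi1, and in 55.9% of all promoters, and the Aqp3 window held neither TGACG nor GATA as letters. The forkhead core TGTTTAC was found in the windows of Atp6v1b1, 93 bases before the start, and Avpr2, 131 bases before it, and in 3.21% of all promoters. These matches describe letters and not bound sites.

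Aqp2 encodes the vasopressin-regulated water channel of the apical membrane. Its signals were 6.71, 6.81 and 7.06 in controls 1 to 3 and 6.57, 6.11 and 6.51 in NDMA animals 1 to 3. All 3 NDMA animals lay below all 3 controls, with a gap of 0.14 between the groups, and NDMA animal 2 was the lowest. The log2 difference was -0.46 ± 0.16 (SE, n = 3 per group, 95% confidence interval -0.85 to -0.08, adjusted p = 0.202), and -0.29 within slide 1. The other Aqp2 probe read 3.77, 3.75 and 3.91 in the controls and 3.50, 3.37 and 3.56 in the NDMA animals. It too was without overlap, with a difference of -0.33 ± 0.09 (adjusted p = 0.136 over all probes) and -0.31 within slide 1.

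Aqp3 encodes the basolateral channel through which water leaves the principal cell, and it had 1 probe. Its signals were 4.96, 5.26 and 4.90 in the controls and 4.66, 4.56 and 4.63 in the NDMA animals. The NDMA animals lay close together (SD 0.05), and the gap to the lowest control was 0.24. The difference was -0.43 ± 0.12 (95% confidence interval -0.71 to -0.14, adjusted p = 0.135), the smallest adjusted p of the 10 genes, and -0.38 within slide 1. Over 19 alternative settings, the fits without 1 animal among them, the adjusted p of Aqp3 ran from 0.0621 to 0.591 and that of Aqp2 from 0.0945 to 0.801, and neither gene was called in any.

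Avpr2 encodes the V2 receptor for vasopressin. Its signals were 0.45, 0.02 and 1.04 in the controls and 0.46, -0.28 and 0.40 in the NDMA animals. The controls alone spanned more than the difference between the means, and the groups overlapped. The difference was -0.31 ± 0.31 (95% confidence interval -1.06 to 0.43, adjusted p = 0.612), -0.05 within slide 1 and -0.04 without control 3. The other probe ordered the animals in nearly the same way, with control 3 highest at 0.90 and NDMA animal 2 lowest at -0.22, and differed by -0.26 ± 0.26.

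**Figure D1:**
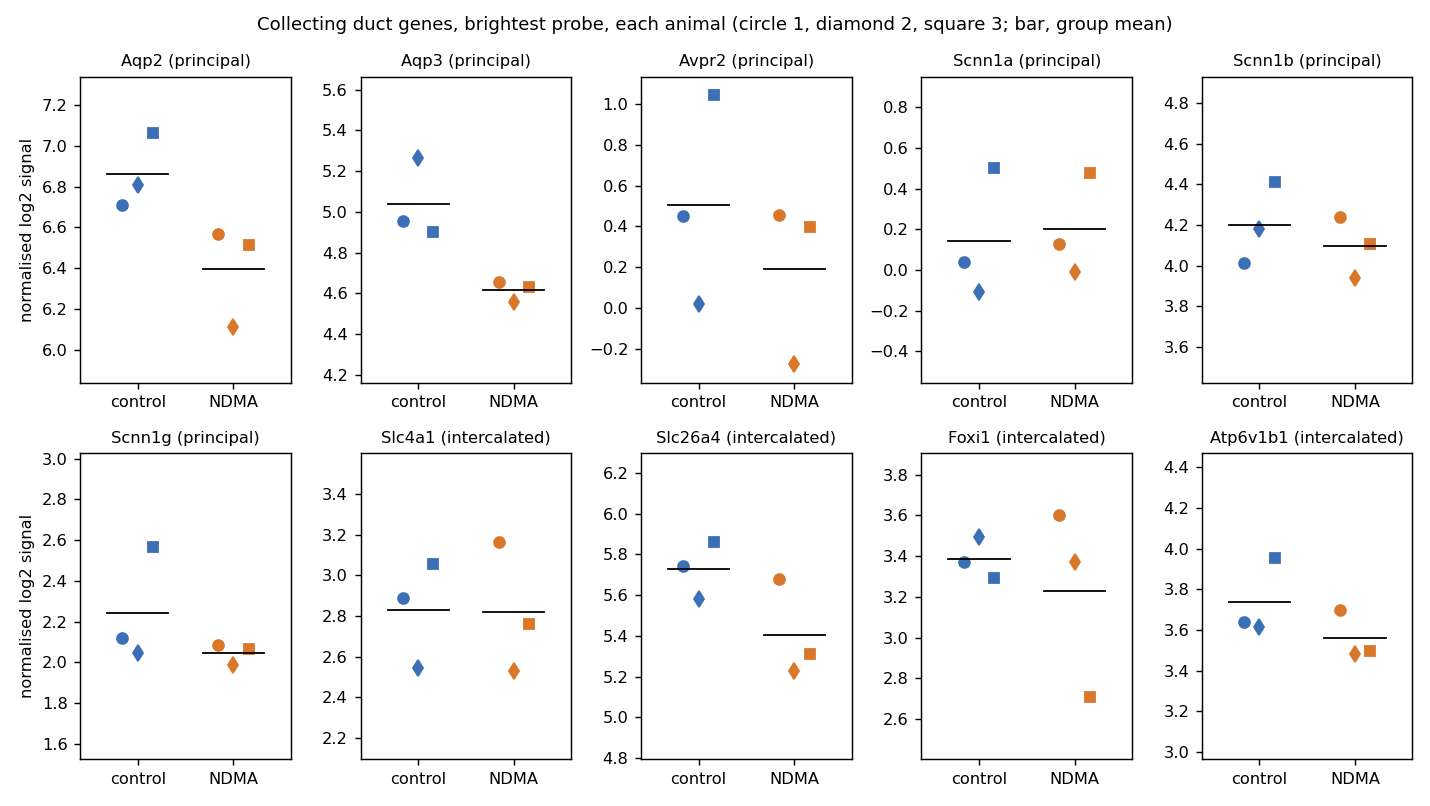
Normalised log2 signal of the brightest probe of each collecting duct gene in every animal, with control animals in blue, NDMA animals in orange, the animal's number as the marker and bars at the group means; each panel spans the same range of log2 units around its own centre. The groups are apart for Aqp2 and Aqp3 and overlap for the other 8 genes.

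The sodium channel genes showed smaller differences, and the groups overlapped for each of them. Scnn1a encodes the alpha subunit, without which the channel does not reach the membrane in useful amounts. Its signals were 0.04, -0.11 and 0.50 in the controls and 0.13, -0.01 and 0.48 in the NDMA animals. In each group animal 3 was the highest, at nearly the same level. The difference was 0.06 ± 0.20 (95% confidence interval -0.42 to 0.53, adjusted p = 0.903), and the dimmer probe differed by 0.23 ± 0.19. Scnn1a was the only gene of the 10 with a difference above 0, and it was -0.04 and -0.05 in the 2 settings with normexp background correction.

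Scnn1b encodes the beta subunit. It read 4.02, 4.18 and 4.41 in the controls and 4.24, 3.94 and 4.11 in the NDMA animals. The ranges of the groups were largely shared, with a difference of -0.11 ± 0.13 (95% confidence interval -0.43 to 0.22, adjusted p = 0.699) and -0.18 ± 0.14 by the other probe, and turned to 0.02 with normexp and quantile normalisation. Without control 3 it was -0.002, and without NDMA animal 2 it was -0.03. Scnn1g encodes the gamma subunit, which like the alpha subunit is cut by proteases when the channel is activated. It read 2.12, 2.04 and 2.56 in the controls and 2.08, 1.99 and 2.06 in the NDMA animals. Control 3 stood above all the other animals, which lay within a narrow band. The difference was -0.20 ± 0.15 (95% confidence interval -0.56 to 0.16, adjusted p = 0.506), and -0.04 without control 3. Within slide 1 the 3 subunits differed by -0.02, 0.04 and -0.16.

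Among the intercalated cell genes, Slc26a4 had the largest difference. It encodes pendrin, the apical chloride and bicarbonate exchanger of the base-secreting intercalated cells. Its signals were 5.74, 5.58 and 5.86 in the controls and 5.68, 5.23 and 5.31 in the NDMA animals. NDMA animals 2 and 3 lay below every control, whereas NDMA animal 1 lay among the controls. The difference was -0.32 ± 0.15 (95% confidence interval -0.67 to 0.03, adjusted p = 0.299), with -0.33 ± 0.15 by the other probe. Within slide 1 it was -0.05, and the animals that were low were those on slide 2.

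Slc4a1 encodes the anion exchanger AE1, found in the basolateral membrane of acid-secreting intercalated cells and, in a longer form, in red blood cells. It read 2.89, 2.54 and 3.06 in the controls and 3.17, 2.53 and 2.76 in the NDMA animals. The ranges of the groups were largely shared, and the difference was -0.01 ± 0.20 (95% confidence interval -0.50 to 0.48, adjusted p = 0.985), and 0.34 within slide 1. The dimmer probe differed by 0.23 ± 0.23, so the 2 probes had opposite signs, the only such case among the 8 genes with more than 1 probe. Of the erythroid genes fixed for comparison, 10 of 13 were tested and 0 passed, with a median of 0.09. Hbb, a beta globin, differed by 0.12 ± 0.14, and Alas2, which makes heme in red cell precursors, by -0.03 ± 0.24. The Hbb signal ran from 7.31 to 7.81 in the controls and from 7.61 to 7.79 in the NDMA animals. Rhd, a red cell membrane protein, had a difference of 0.48 ± 0.20 (adjusted p = 0.267). The part of red blood cells in the Slc4a1 signal was not tested.

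Foxi1, the forkhead transcription factor of intercalated cells, read 3.37, 3.50 and 3.29 in the controls and 3.60, 3.37 and 2.71 in the NDMA animals. NDMA animal 3 was low and NDMA animal 1 was the highest of all 6. The difference was -0.16 ± 0.23 (95% confidence interval -0.71 to 0.39, adjusted p = 0.738), 0.21 within slide 1 and 0.10 without NDMA animal 3. The dimmer probes gave -0.20 ± 0.12 and -0.26 ± 0.16, and NDMA animal 3 was the lowest on both, at -1.94. Atp6v1b1 encodes the B1 subunit of the proton pump, an isoform of intercalated cells. It read 3.64, 3.61 and 3.95 in the controls and 3.70, 3.48 and 3.50 in the NDMA animals. NDMA animals 2 and 3 lay below the controls and NDMA animal 1 among them. The difference was -0.18 ± 0.13 (95% confidence interval -0.48 to 0.13, adjusted p = 0.482), -0.04 within slide 1, -0.07 without control 3 and -0.33 ± 0.18 by the other probe.

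**Figure D2:**
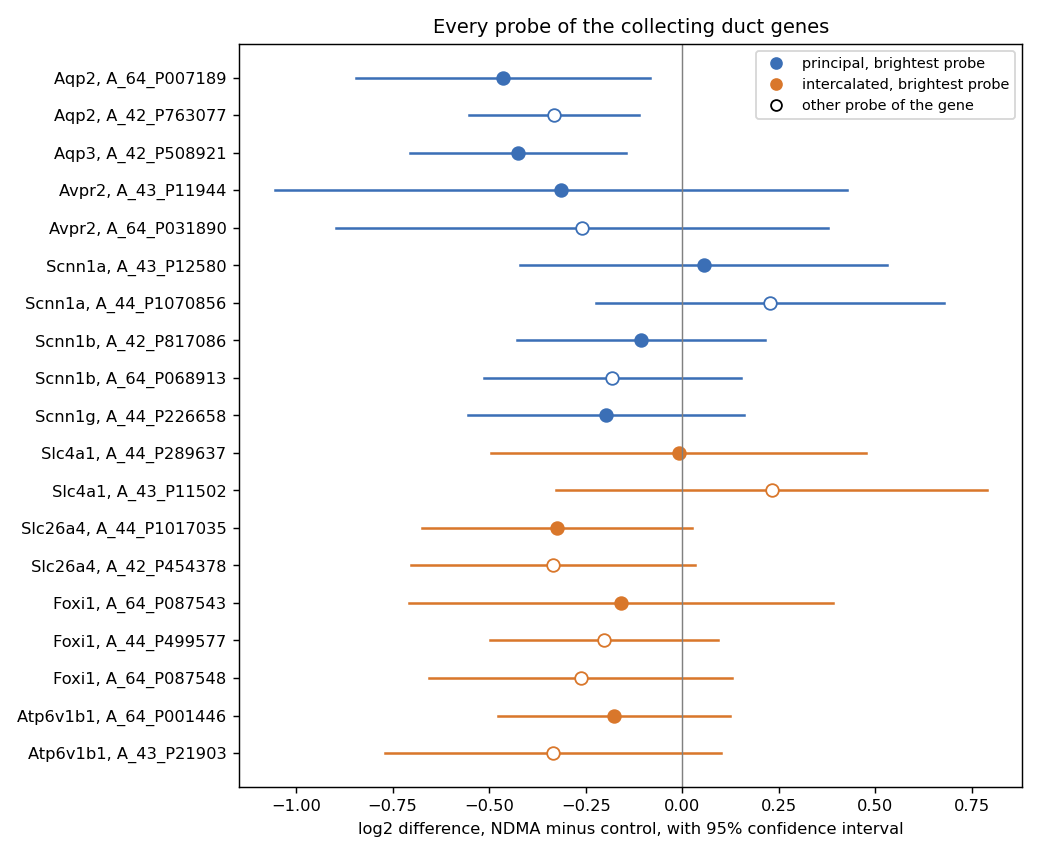
Log2 difference (NDMA minus control) of all 19 probes of the collecting duct genes with its 95% confidence interval; filled points are the brightest probe of a gene, and blue and orange mark principal and intercalated cell genes. The intervals of the 3 probes of Aqp2 and Aqp3 lie below 0 and the other 16 include 0.

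Over the 19 probes, 16 had a difference below 0, against 58.1% of all 43118 probes tested, and 3 were lower without overlap, against 16%. Of the 19 probes 0 passed at an adjusted p under 0.05, against 2.99% of all probes, with adjusted p from 0.133 to 0.985. The 3 at an unadjusted p under 0.05 were those of Aqp2 and Aqp3, and 9.82% of all probes were lower at that level. In 7 of the 8 genes with more than 1 probe the probes had the same sign.

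Animals of the same group also differed from each other in the members. Control 3 had the highest signal of all 6 animals in 7 of the 10 genes, 5 of them principal, and NDMA animal 2 the lowest in 8 of the 10, also with 5 principal. Over all features control 3 was the highest in 20.6% and NDMA animal 2 the lowest in 26.1%, the largest such share of any animal in the latter case. NDMA animal 2 was also the array with the most extreme score on the first principal component of all features, so its low values are not shown to be particular to the members. The exceptions for control 3 were Aqp3, where control 2 was highest, and Slc4a1 and Foxi1, where NDMA animal 1 was. Relative to the control mean, the mean over the 6 principal genes was -0.12, -0.13 and 0.25 in controls 1 to 3 and -0.14, -0.45 and -0.13 in NDMA animals 1 to 3. NDMA animals 1 and 3 were thus at the level of controls 1 and 2 on this average. Over the 4 intercalated genes the means were -0.01, -0.11 and 0.12 in the controls and 0.12, -0.27 and -0.35 in the NDMA animals. The NDMA animal on the controls' slide lay within the control range and both animals of slide 2 below it. With the slide as a fixed block the differences of the 10 genes were those within slide 1, 7 of them below 0, with adjusted p from 0.591 to 0.994. Slide 2 held no control animal, so no value within it could be given.

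**Figure D3:**
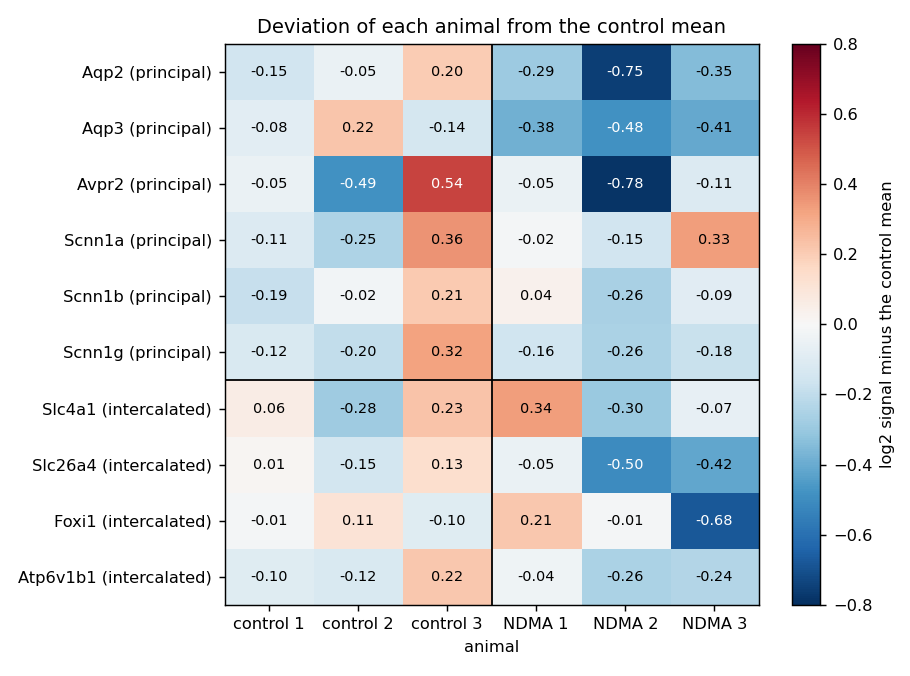
Deviation of each animal's log2 signal from the mean of the 3 controls, for the brightest probe of each gene; the vertical line parts controls from NDMA animals and the horizontal line principal from intercalated cell genes. Control 3 is high in most rows, NDMA animal 2 is low in most rows, and the 3 NDMA animals are all negative for Aqp2 and Aqp3, as for Avpr2, Scnn1g, Slc26a4 and Atp6v1b1, where the groups overlap.

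Of 26 genes of vasopressin and cyclic AMP signalling, which include Aqp2, Aqp3 and Avpr2, 0 passed and the median difference was -0.13. Ptger3, a prostaglandin receptor that opposes vasopressin, had the smallest p of the others, with -0.35 ± 0.10 (adjusted p = 0.146). Adcy6, an adenylyl cyclase of the collecting duct, differed by -0.10 ± 0.10, and Aqp4, the other basolateral water channel of principal cells, by 0.39 ± 0.25, with its highest signal, -0.03, in NDMA animal 2, where Aqp2 was lowest. Of 23 measured genes of aldosterone action and sodium channel control, among them the channel subunits, 0 passed, with a median of -0.09. Without control 3, 1 of them passed, the steroid receptor co-chaperone Fkbp5 (1.93, adjusted p = 0.0309). Furin and Prss8, proteases that cut the sodium channel, had -0.45 ± 0.12 and -0.27 ± 0.09 (adjusted p = 0.130 and 0.192). The mineralocorticoid receptor gene Nr3c2 differed by -0.18 ± 0.13, Hsd11b2, which shields that receptor from glucocorticoids, by -0.18 ± 0.14, and the aldosterone-induced kinase Sgk1 by 0.13 ± 0.41.

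Of 18 further measured principal cell genes 1 rose, Lgals3 (0.69 ± 0.11, adjusted p = 0.0294), a galectin that macrophages also make, and the median was -0.06. The Lgals3 call was lost without control 1, control 2, NDMA animal 2 or NDMA animal 3 (adjusted p = 0.106, 0.101, 0.0976 and 0.0963), and with the slide as a block (0.262). It was also lost with no filter (0.0882), the replicate block (0.0716) and on slide 1 alone. Of 25 further intercalated cell genes 0 passed, with 21 below 0 and a median of -0.08. Hmx2, a homeobox gene of intercalated cells, and Tfcp2l1, a transcription factor of collecting duct cells, had the smallest p, with -0.36 ± 0.09 and -0.27 ± 0.08 (adjusted p = 0.118 and 0.157) and no overlap of the groups. Over all features 16.3% were lower without overlap. Hmx2 passed with normexp and the 75th percentile (-0.46, adjusted p = 0.0490). Carbonic anhydrase 2 (Car2) differed by -0.08 ± 0.08, the pump subunit Atp6v1g3 by -0.15 ± 0.13, the exchanger Slc4a9 by -0.07 ± 0.15, the intracellular channel Aqp6 by -0.12 ± 0.16 and the ammonia transporter Rhcg by 0.13 ± 0.11. Of 18 subunits of the proton pump outside the intercalated isoforms 0 passed, with 16 below 0 and a median of -0.15. The share below 0 over all features, beside this list and the intercalated one, was 58.6%. Tcirg1, the pump subunit of osteoclasts and leukocytes, differed by 0.54 ± 0.14 and Atp6v0c by -0.43 ± 0.12 (adjusted p = 0.122 and 0.150). Tcirg1 passed with normexp and quantile normalisation (0.51, adjusted p = 0.0480). Of 17 collecting duct fate and Notch genes 0 passed, with a median of -0.08, and Elf5, a principal cell factor, differed by -0.19 ± 0.08 (adjusted p = 0.282).

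**Figure D4:**
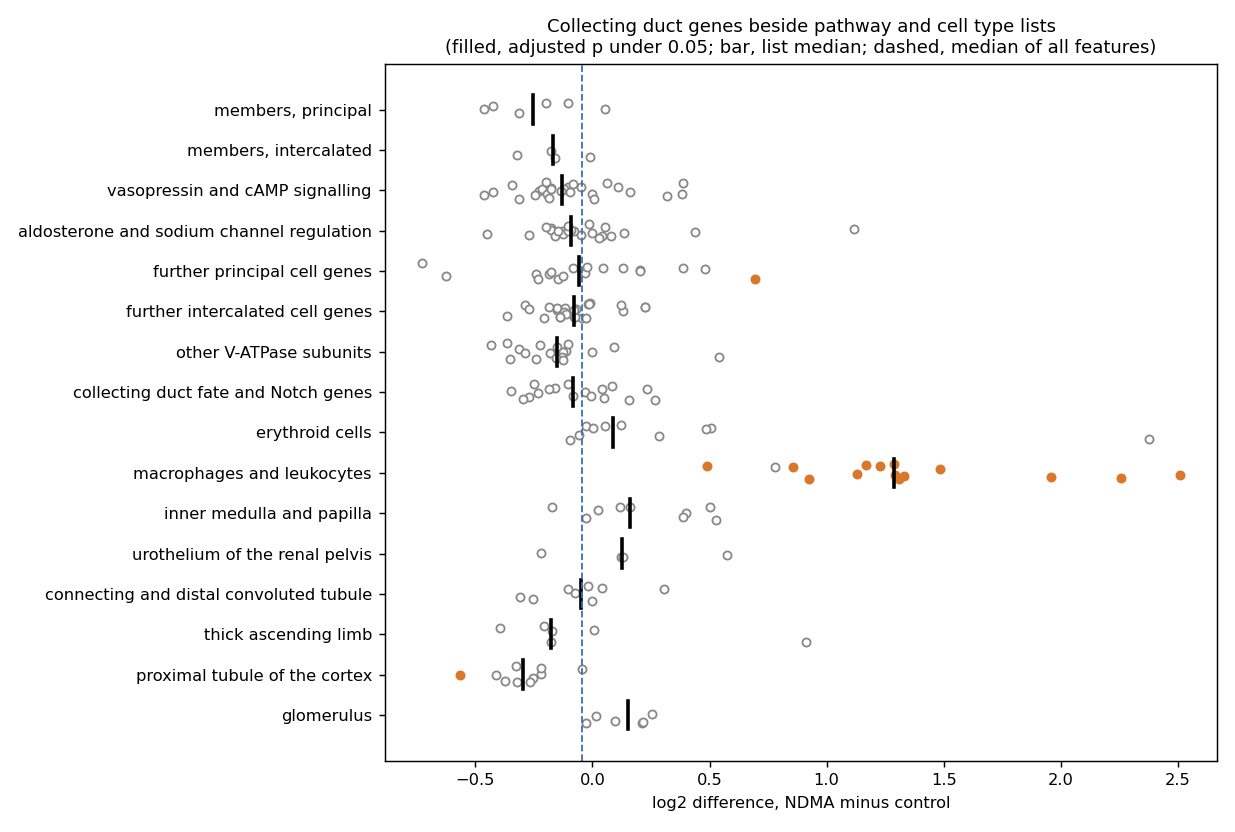
Log2 difference (NDMA minus control) of the collecting duct genes and of each measured gene of the comparison lists; filled points passed at an adjusted p under 0.05, bars are list medians and the dashed line is the median of all features. The collecting duct genes lie between -0.46 and 0.06, and the leukocyte list lies to the right with a median of 1.29.

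Genes of other cells of the cortex gave the setting of these values. Among 15 macrophage and leukocyte genes, 14 passed and all of those were higher. The median was 1.29, and the mean over the list ran from -0.09 to 0.16 in the controls and from 1.21 to 1.45 in the NDMA animals. The genes that rose included Cd247, a T cell receptor chain (1.96 ± 0.13, adjusted p = 0.00488), the macrophage gene Cd68 (1.48 ± 0.14), the complement gene C1qb (1.33 ± 0.12) and the leukocyte marker Ptprc (1.29 ± 0.12). The 14 calls were 8 without control 1, 9 without NDMA animal 3 and 0 with the slide as a block, where the median was 1.15. Of 10 proximal tubule genes 1 fell, the endocytic receptor Lrp2 (-0.57 ± 0.10, adjusted p = 0.0454), all 10 were below 0 and the median was -0.30. The Lrp2 call was lost in each of the 6 fits without 1 animal (adjusted p from 0.0581 to 0.146) and with the slide as a block (0.367). It was also lost with quantile normalisation (0.0667), the mean of the probes (0.0649), no filter (0.128) and the replicate block (0.139). Of 8 genes of the connecting and distal convoluted tubule, 6 of the thick ascending limb and 6 of the glomerulus 0 passed, with medians of -0.05, -0.18 and 0.15. Kl and Slc8a1, Cldn10 and Kng2, and Wt1 were among the genes of smallest p in these lists, with differences of -0.31 and -0.25, -0.40 and 0.91, and 0.25. The Kng2 difference had an SE of 0.54 (adjusted p = 0.402), its groups overlapped, and control 3 was the lowest at -2.72. The distal sodium chloride transporter Slc12a3 differed by -0.002 ± 0.12 and the calcium-binding protein Calb1 by 0.04 ± 0.19.

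Markers of the inner medulla, where collecting ducts are also dense, did not pass in any of 9 genes, with a median of 0.16. Their mean was from -0.08 to 0.04 in the controls and 0.07, 0.49 and 0.08 in NDMA animals 1 to 3, so NDMA animal 2, low in most members, was the highest here. The urea transporter Slc14a2 of the inner medullary collecting duct differed by 0.02 ± 0.10, and Slc6a12 and Ptgs1 by 0.53 ± 0.11 and 0.50 ± 0.15 (adjusted p = 0.0751 and 0.169). Of 4 measured urothelial genes 0 passed (median 0.13), with Upk3a at 0.57 ± 0.62 and Krt5 at -0.22 ± 0.24. The part of any of these cells in the values of the collecting duct genes was not tested.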

How the data were processed

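The authors read the arrays in Agilent Feature Extraction (10.7 in the submitters' processing notes, 10.7.1.1 per the file headers). Per the file headers, the processed intensity of a spot is background-subtracted and detrended within its array, and arrays are not scaled to each other. A table of values deposited by the authors is on a linear ratio scale: above 0.1 it equalled intensity divided by the array's 75th percentile within 0.00174 log2 units. Column medians ran from 0.110 to 0.115. The array annotation names build rn4.

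The log2 of each array's 75th percentile (993 to 1310 over 61657 non-control probes) was subtracted from log2 intensities. On each array 43016 to 46248 probes were well above background. Outlier spots were set missing (18 values). A probe was kept (43118 were) if either group had it well above background in all 3 animals. Each gene was read by its brightest probe and unnamed probes stood alone, giving 34155 features. Accessions were named from RefSeq (GRCr8), 27460 probes in all. NDMA was set against water with limma 3.58.1 (R 4.3.3), by two-sided tests over features and again over all probes, on 4 residual degrees of freedom and a prior of 2.38. An exact permutation test of 3 against 3 cannot go below 0.1, so none is given. The number of arrays limits the precision. The fit was tested on simulated data with independent noise and no slide effect. In these data 67, 67 and 66 of 34141 features were changed 1.5-fold, 2-fold and 4-fold. The fit recovered 16.4% of features changed 1.5-fold, 56.7% of those changed 2-fold and 86.4% of those changed 4-fold. Far fewer features were changed there than the 1009 that passed in the real data, and the adjustment depends on that number. These rates need not hold for the real arrays. The largest difference of a member was 1.38-fold, so members that did not pass are not shown to be unchanged. The replicate numbers were not used as pairs. Same-numbered controls and NDMA animals had correlations of their deviations of 0.04, -0.05 and 0.02, and other pairs from -0.09 to 0.07. These values cannot show whether animals were paired in housing or handling.

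Over all features 1009 passed, 846 higher and 163 lower. Correlations between arrays across features, which are not independent replicates, were 0.992 to 0.995 within groups and 0.985 to 0.990 between them.

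The members and lists were chosen with earlier results of these data known. Every member is named. Lists are named by up to 4 genes that passed, in order of p, or else by the 2 of smallest p, with preset cell markers; 2 genes this would name are not reported here. Alternatives were the scaling, background correction, dim-probe filter, probe choice, slide, variance prior, replicate block, each animal left out and the value table.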

Additional observations from a re-analysis of the deposited data

How the results depend on the processing

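With each of the 20 alternatives, 0 of the 10 collecting duct genes passed in limma, with 0 to 3 of them at an unadjusted p under 0.05. The count of 1009 features over the whole array was 375 without a filter, 73 with the slide as a fixed block and 0 on slide 1 alone (3714 at an unadjusted p under 0.05), and ran from 359 to 794 without 1 animal, lowest without NDMA animal 3. With the replicate number as a block it was 379, and 0 of the 10 genes passed. The labels link these animals by a number only. Joining unnamed probes by the file's name, chosen after seeing the data, gave 957. With normexp and the 75th percentile 66.7% of the calls were higher, against 83.8%.

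Aqp2, Aqp3, Avpr2, Scnn1g, Slc26a4 and Atp6v1b1 kept their sign in 19 of 19 alternatives, which are not independent of each other. The variance prior and the replicate block cannot change a difference, and slide 1 alone repeats that of the slide block. Dropping the filter, or requiring detection on every array, left the differences of these genes as they were. The value table has the same scaling as the main fit. With the slide as a block Avpr2, Slc26a4 and Atp6v1b1 were at only -0.05, -0.05 and -0.04. Slc4a1 was 0.039 with quantile normalisation, 0.11 as a mean of its probes, 0.34 with the slide as a block or on slide 1 alone, and from -0.18 to 0.13 without 1 animal. Scnn1a was -0.042 with normexp and quantile, -0.052 with normexp and the 75th percentile, -0.015 with the slide as a block or on slide 1 alone, and from -0.083 to 0.23 without 1 animal. Scnn1b was 0.018 with normexp and quantile and 0.036 with the slide as a block or on slide 1 alone. Foxi1 was 0.21 in those slide settings, from -0.35 to 0.10 without 1 animal, and 0.014 and 0.051 by its dimmer probes with the slide as a block. The cause of these changes was not tested. The normexp settings used the median signal, and the random slide block had a correlation of -0.04.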

Other observations

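Genes known to respond to glucocorticoids and mineralocorticoids parted the controls. Fkbp5, a co-chaperone of steroid receptors, had signals of 1.28, 1.36 and 3.77 in controls 1 to 3 and of 2.98, 3.16 and 3.62 in NDMA animals 1 to 3. Control 3 was thus above every NDMA animal, and controls 1 and 2 below them. The log2 difference was 1.11 ± 0.67 (limma adjusted p = 0.411), and 1.93 without control 3 (adjusted p = 0.0309). Tsc22d3, a glucocorticoid-induced leucine zipper gene, had 1.77, 1.76 and 2.75 in the controls and 2.43, 2.79 and 2.38 in the NDMA animals. Sgk1 had 3.06, 2.81 and 3.81 in the controls and 3.96, 3.57 and 2.56 in the NDMA animals, so its groups overlapped throughout. Control 3 was also the animal with the highest signal in 7 of the 10 collecting duct genes, and in 20.6% of all features. A link between Fkbp5, Tsc22d3 or Sgk1 and the collecting duct genes was not tested. With the slide as a block the Fkbp5 difference was 0.84 (adjusted p = 0.890). These genes were singled out after their values were seen.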
